A study of Mus musculus with 22 samples.

Results

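The genes described here are Guca2a, Guca2b, Gucy2c and Prkg2, which encode the peptides guanylin and uroguanylin, their receptor guanylate cyclase C and the kinase that answers to its product. They were chosen by name as a pathway, with earlier results of these data known, and they are 4 of the 24421 genes with counts in the 22 deposited libraries. RNA was sequenced from cells sorted from the colon, from caecum to rectum, of untreated wild type male C57BL/6N mice aged 5 to 7 weeks. The study asked how RNA changes as colon stem cells leave stemness and settle in a lineage.

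All libraries came from live Epcam+ cells without Cd31 or Cd45, and 6 cell types were gated from these, with the gates given here as the labels have them. Stem cells (Stem, n = 3) had the highest Cd44, low Cd24 and no Ckit. Absorptive progenitors (AbsPro, n = 3) had medium to high Cd44, low Cd24 and no Ckit. SecPDG (n = 4), a mix of secretory progenitors and deep crypt secretory cells that could also hold goblet cells, had high Cd44 with medium Cd24 and Ckit. Tuft cells (Tuft, n = 5) were Ckit+ with high Cd24. Enterocytes (Ent, n = 5) had low or no Cd44 and no Cd24, and enteroendocrine cells (EEC, n = 2) had low or no Cd44 with Cd24. Sorts and RNA of 1 cell type were pooled where cells were few. The study used 1 mouse for each Stem and AbsPro library and several mice for each library of the other 4 cell types. Number of mice and cell type therefore cannot be told apart where Stem or AbsPro is set against those 4.

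Guanylin and uroguanylin are small peptides that the gut epithelium secretes into the lumen. They bind guanylate cyclase C on the apical membrane, which makes cyclic GMP (cGMP) inside the cell. The kinase encoded by Prkg2 then acts on ion transporters, opening the chloride channel Cftr and holding back the sodium and proton exchanger Slc9a3, so that salt and water enter the lumen. In the colon guanylin is known from goblet cells and surface epithelium, and uroguanylin is best known from the small intestine.

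The 2 peptide genes lie on chromosome 4 of GRCm38, the assembly also called mm10. Guca2a (ENSMUSG00000023247.2) spans 119637704 to 119639471 on the plus strand and Guca2b (ENSMUSG00000032978.14) spans 119656607 to 119658954 on the minus strand. Their 3′ ends face each other across 17135 bases. Gucy2c (ENSMUSG00000042638.14) spans 136697284 to 136781765 of chromosome 6, and Prkg2 (ENSMUSG00000029334.14) spans 98929773 to 99037351 of chromosome 5, both on the minus strand. No exon of these 4 genes overlaps an exon of another gene in GENCODE M21, which matters because the reads were counted without regard to strand.

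The active peptide is cut from the carboxyl end of each precursor, and the last 16 codons before the stop codon, all in the last exon, show how alike the 2 peptides are. These are chr4:119639225-119639272, plus strand, for Guca2a and chr4:119656795-119656842, minus strand, for Guca2b, in the GENCODE M21 transcripts, with the cysteine codons in capitals.
Guca2a: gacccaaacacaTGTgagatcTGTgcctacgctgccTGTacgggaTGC
Guca2b: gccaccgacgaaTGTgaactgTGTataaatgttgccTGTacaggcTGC
The 4 cysteine codons stand at the same places in both, at codons 5, 8, 13 and 16, and 31 of the 48 bases (64.6%) are identical.

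The promoters are shown because both peptide genes ran through the 6 cell types in the same order of mean level. No step between neighbours in that order reached the threshold used below for either gene, and the 2 EEC libraries disagreed on Guca2b. Each window covers 250 bases before and 50 after the start site in RefSeq (GRCm38.p6), for the 2 of the 4 genes that were matched, at chr4:119637482-119637781 on the plus strand and chr4:119658896-119659195 on the minus strand. Capitals mark matches, on either strand, to motifs of the GATA, CDX and HNF4 factors, spelled out after the sequences. These motifs were picked with the sequences in view, and none overlaps another here.
Guca2a: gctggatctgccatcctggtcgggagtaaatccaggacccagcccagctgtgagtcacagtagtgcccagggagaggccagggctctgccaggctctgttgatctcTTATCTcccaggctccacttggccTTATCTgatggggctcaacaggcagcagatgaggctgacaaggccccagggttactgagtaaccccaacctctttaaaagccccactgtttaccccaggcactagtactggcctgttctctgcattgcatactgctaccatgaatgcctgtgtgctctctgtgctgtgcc
Guca2b: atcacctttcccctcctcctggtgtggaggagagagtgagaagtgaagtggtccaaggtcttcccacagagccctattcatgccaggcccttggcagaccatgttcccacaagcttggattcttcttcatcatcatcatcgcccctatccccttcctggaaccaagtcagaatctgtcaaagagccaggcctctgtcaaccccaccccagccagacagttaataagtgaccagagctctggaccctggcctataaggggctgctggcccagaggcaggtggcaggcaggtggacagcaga
The Guca2a window held the GATA motif, AGATAA, 2 times, both on the other strand, and 11.2% of the 32851 promoter windows hold it. The Guca2b window held no match to these 3 motifs.

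The core of the CDX site, TTTAT, is in 40.0% of windows and matched neither of these. The HNF4 motif, CAAAGTNCA, is in 1.41% of windows and matched neither.

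Libraries held 4122122 to 22462518 counts on genes. Reads outside genes made up 40.9% to 68.8% of the reads placed on or outside genes in 18 libraries and over 80% in 3 Ent libraries and in EEC 1, where the share was 89.7%. A background rate, taken from olfactory, vomeronasal and trace amine receptor and keratin-associated protein genes, was highest in the same 4 libraries, at up to 5.39 reads per kilobase. The sorted cell types held their markers: all 5 stem, 4 secretory progenitor, 5 tuft and 5 enteroendocrine markers, and 5 of 6 absorptive ones, were highest in the cell type they belong to. Of 5 goblet markers, 3 were highest in SecPDG, while Zg16 was highest in Ent and Muc2, the gel mucin of goblet cells, had a mean of 675085 normalized counts in Tuft beside 636062 in SecPDG. The 9 count files of SecPDG and Tuft were named by a different pattern from the rest. If the pattern marks a batch, that batch and the cell type cannot be told apart wherever SecPDG or Tuft is set against the other 4 cell types.

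Levels are given as normalized counts, scaled with TMM factors to the mean effective library size. The 22 libraries entered 1 quasi-likelihood model in edgeR, over 22781 genes. Called here means an adjusted p (Benjamini-Hochberg) below 0.01 together with at least 50 normalized counts on average, a level that all 4 genes reached. Shares of genes called are over all 22781. Besides any 1 member, 13187 genes reached that level, and genes below it could not be called. The share among genes at that level is therefore higher. In bulk libraries, fewer cells that express a gene and less RNA per cell cannot be told apart.

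**Figure D1:**
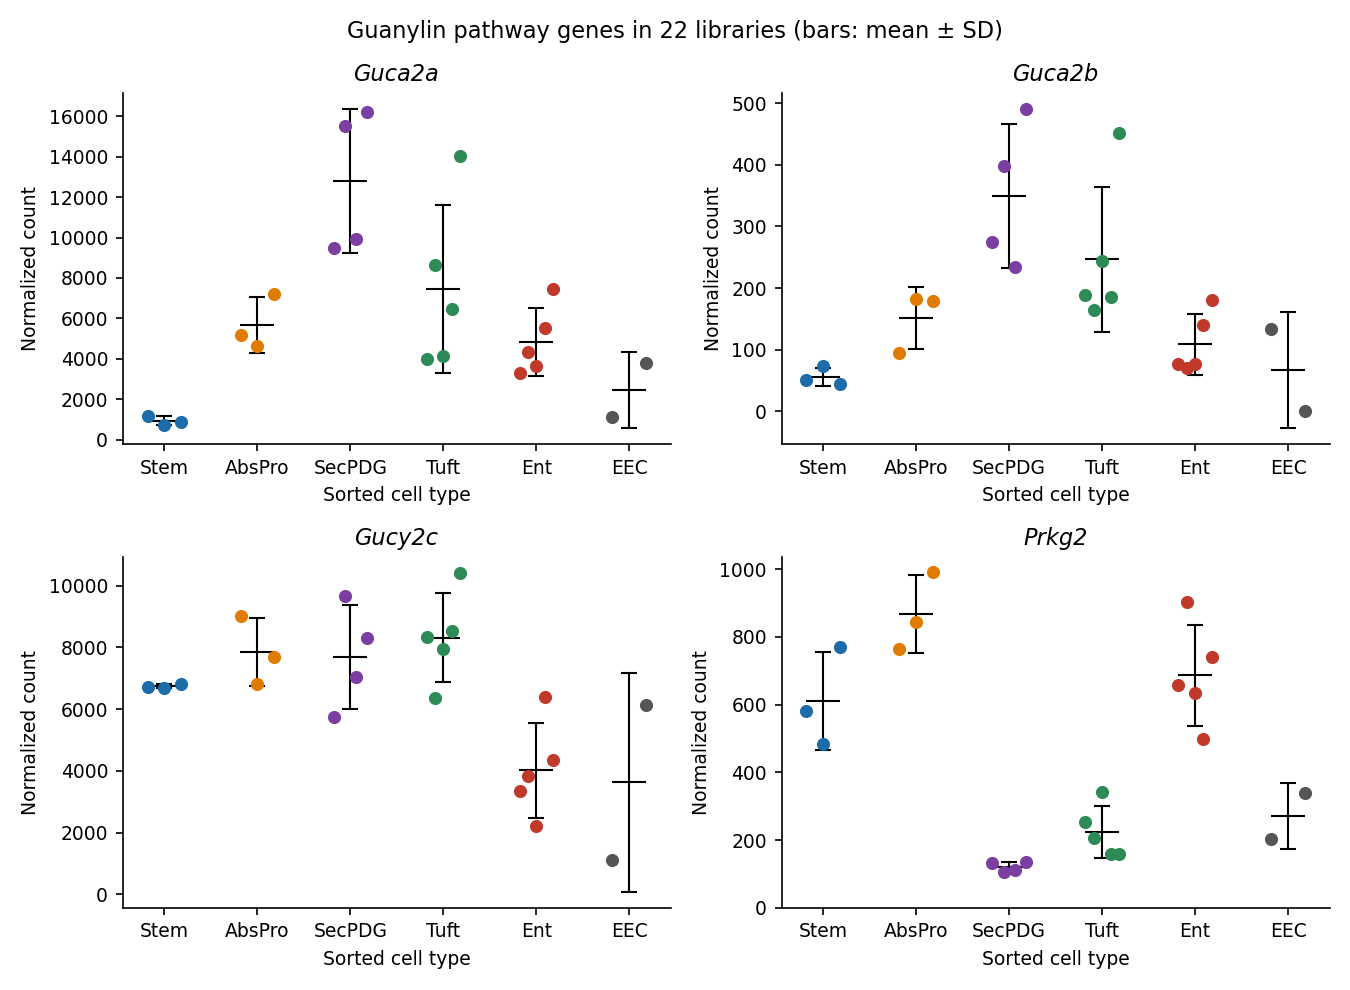
Normalized count of Guca2a, Guca2b, Gucy2c and Prkg2 (y axis, linear, own scale for each gene) in every library of the 6 sorted cell types (x axis). Points are libraries, and bars are the mean and SD. Guca2a was lowest in Stem and highest in SecPDG, whereas Prkg2 was lowest in SecPDG and highest in AbsPro.

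Guca2a, the guanylin gene, was the member that set stem cells most apart from the other cell types. It rose 6.09-fold in AbsPro, 13.7-fold in SecPDG, 8.01-fold in Tuft and 5.20-fold in Ent. In EEC it stood 2.63-fold above Stem and was not called. The order of its mean levels was SecPDG, Tuft, AbsPro, Ent, EEC and Stem.

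The 3 Stem libraries held 1175, 729.8 and 889 normalized counts of Guca2a. The 3 AbsPro libraries held 5164, 4628 and 7228. The 4 SecPDG libraries held 9461, 15503, 9944 and 16189. These 3 cell types did not overlap one another. The 5 Tuft libraries held 3980.1, 8661, 4159.6, 6443 and 14048, a spread that ran from below every AbsPro library up into SecPDG. The 5 Ent libraries held 3273, 4319.5, 3662, 5538 and 7439.6, and the 2 EEC libraries held 1110.0 and 3787. EEC 1 lay within the range of stem cells.

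Against Stem, Guca2a rose by 2.61 ± 0.49 (log2 fold change ± SE) in AbsPro, with an adjusted p of 0.00346 in edgeR's test and 3 of 3 libraries above the mean of stem cells. It rose by 3.78 ± 0.50 in SecPDG (adjusted p = 2.62e-06, 4 of 4 libraries). In Tuft the rise was 3.00 ± 0.48 (adjusted p = 2.99e-05, 5 of 5 libraries). In Ent it was 2.38 ± 0.46 (adjusted p = 0.000277, 5 of 5 libraries). In EEC the difference was 1.40 ± 0.51 with an adjusted p of 0.0279. Over all genes tested, 0.364% were called in AbsPro, 3.10% in SecPDG, 6.44% in Tuft, 13.5% in Ent and 14.0% in EEC, against Stem. Of the 4 members, 1 was called in AbsPro, 2 in SecPDG, 2 in Tuft, 1 in Ent and 0 in EEC.

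The AbsPro call rests on all stem cell libraries, since leaving out Stem 1, Stem 2 or Stem 3 gave an adjusted p of 0.0210, 0.0199 or 0.0144, with a log2 fold change of 2.48 to 2.81. The EEC difference was called when EEC 1, the library with most reads outside genes, was left out (1.86, adjusted p = 0.00224), which leaves 1 EEC library that is assumed to vary like the other cell types. Without EEC 2 it was 0.25 (adjusted p = 0.743), so that its size rests on which EEC library is used. It was also called with DESeq2's size factors in edgeR (1.92, adjusted p = 0.000246).

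No pair of neighbours in the order of Guca2a levels was called, EEC and Stem included. SecPDG stood 0.78 ± 0.38 above Tuft on the log2 scale (adjusted p = 0.162), Tuft 0.39 ± 0.42 above AbsPro (0.506), AbsPro 0.23 ± 0.41 above Ent (0.660) and Ent 0.98 ± 0.50 above EEC (0.298), each with overlapping libraries, as EEC and Stem had. Farther apart, Guca2a in Ent was 1.40 ± 0.38 below SecPDG (adjusted p = 0.00603) and in EEC it was 2.38 ± 0.55 below SecPDG (adjusted p = 0.00174). These came in comparisons that called 14.7% and 15.0% of all genes. The first was lost without the 3 Ent libraries and the EEC library with over 80% of reads outside genes (-0.81, adjusted p = 0.0966), and the second also missed the threshold there (-1.64, adjusted p = 0.0135). The first was also lost with DESeq2's size factors (-0.86, adjusted p = 0.0117), with library totals (-0.72, adjusted p = 0.0214) and without SecPDG 4 (-1.26, adjusted p = 0.0241), Ent 2 (-1.36, 0.0156) or Ent 3 (-1.31, 0.0167). SecPDG lay above AbsPro by 1.17 ± 0.45 with no overlap of libraries and an adjusted p of 0.168, in a comparison that called 2.22% of genes. DESeq2's Wald test called that difference (1.19, adjusted p = 0.00164).

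The sum of 4 secretory progenitor markers (Atoh1, Spdef, Reg4 and Agr2) was highest in SecPDG and Tuft, as Guca2a was, and lowest in EEC, which Guca2a was not. By mean level Reg4 and Agr2 were lowest in EEC too. Atoh1 (211 in Stem, 328 in EEC) and Spdef (130 and 172) were lowest in Stem, as Guca2a was. The sum ran from 176382 to 318995 normalized counts in SecPDG, 79893 to 249931 in Tuft and 12334 to 46433 in AbsPro. In Ent it ran from 4468 to 38523, in Stem from 4539 to 6763 and in EEC from 1835 to 4111. Within Tuft, within AbsPro and within Ent, the library with the most Guca2a was also the library with the highest sum, Tuft 5 with 249931, AbsPro 3 with 46433 and Ent 5 with 38523. Within Stem and within SecPDG it was not. The sum of 5 goblet markers (Muc2, Clca1, Fcgbp, Tff3 and Zg16) ran from 17074 to 29497 in Stem and from 33939 to 60335 in EEC. It ran from 78982 to 235941 in AbsPro, 233378 to 673019 in Ent, 650353 to 1052900 in Tuft and 635629 to 2928480 in SecPDG, and no marker of either list was at 0 in a library. The library with the most Guca2a also had the highest goblet sum within AbsPro, Ent and Stem, but not within SecPDG or Tuft. It had the highest sum of absorptive markers, given below, within AbsPro, Ent and SecPDG, but not within Stem or Tuft. The part of goblet or secretory cells in the Guca2a levels of AbsPro, Tuft and Ent was not tested.

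**Figure D2:**
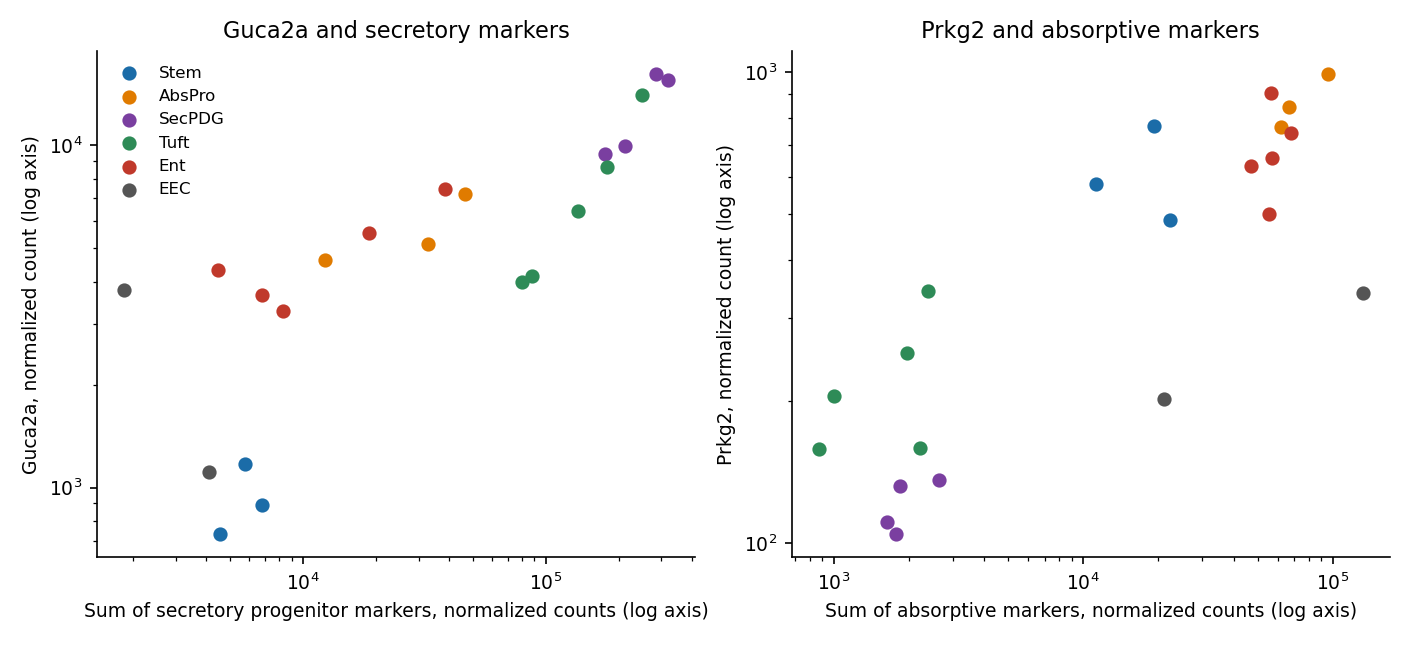
Left, Guca2a against the summed secretory progenitor markers. Right, Prkg2 against the summed absorptive markers, each as normalized counts on log axes, with 1 point per library coloured by cell type. Libraries with more Guca2a had the higher secretory sum throughout Tuft and AbsPro, while those of Ent, Stem and SecPDG kept this order only in part. Prkg2 was at or below 343 in every library of SecPDG and Tuft, where the absorptive sum was at most 2635.

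Guca2b, the uroguanylin gene, was scarce, with 0 to 539 counts in a library. Its mean level followed the order of Guca2a, with 349 ± 117 normalized counts in SecPDG (SD, n = 4), 247 ± 118 in Tuft (n = 5), 151 ± 49.8 in AbsPro (n = 3), 109 ± 49.2 in Ent (n = 5), 66.9 in EEC (n = 2) and 55.8 ± 15.3 in Stem (n = 3). No comparison of cell types called it. The estimated background came to at most 7.11% of its count in the 21 libraries with counts of it, and to 1.31 counts in EEC 2, which had none.

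The Stem libraries held 50.5, 73.0 and 43.8 normalized counts of Guca2b, and the AbsPro libraries 94.0, 182 and 178. The SecPDG libraries held 274, 398, 234 and 489.7. The Tuft libraries held 189, 164, 244, 185 and 451, where Tuft 5 lay far above the other 4. The Ent libraries held 76.0, 69.98, 76.3, 140.3 and 180.0. All libraries of SecPDG, Tuft and AbsPro lay above all of Stem, and Ent overlapped Stem.

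The 2 EEC libraries disagreed. EEC 1, with 4122122 counts on genes, held 74 counts of Guca2b (134 normalized counts), and EEC 2, with 13132315, held 0. A count of 0 allows up to 3 counts, or 3.64 normalized counts, so that EEC 2 was at least 15.3-fold lower than the mean of Stem and at least 95.9-fold lower than that of SecPDG, for counting error alone. EEC 2 held 3121 counts of Guca2a and 5052 of Gucy2c. A mean of the 2 libraries therefore describes neither.

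Guca2b stood 2.64 ± 0.76 above Stem on the log2 scale in SecPDG (adjusted p = 0.0303, 4 of 4 libraries) and 2.14 ± 0.72 above it in Tuft (adjusted p = 0.0275, 5 of 5 libraries). The differences in AbsPro (1.44 ± 0.75, adjusted p = 0.414), Ent (0.96 ± 0.69, 0.244) and EEC (0.24 ± 0.84, 0.856) did not pass the test, although no AbsPro library overlapped Stem. Whether SecPDG and Tuft are called depends on the method. DESeq2's Wald test, which the study used, called Guca2b in SecPDG (2.62, adjusted p = 0.00411) and in Tuft (2.29, 0.00452). The newer quasi-likelihood method of edgeR did so too (2.62, adjusted p = 6.93e-05, and 2.18, 0.000642), as did a fit without the 4 libraries with over 80% of reads outside genes (2.59, 0.000232, and 2.17, 0.000877). The last 2 were chosen after seeing the data.

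Gucy2c, the receptor of both peptides, was the most even member. It was present in every library, at 617 to 12772 counts, and no comparison of cell types called it. Its mean was 8319 ± 1449 normalized counts in Tuft, 7848 ± 1109 in AbsPro, 7687 ± 1687 in SecPDG, 6734 ± 65.5 in Stem, 4023 ± 1537 in Ent and 3623 in EEC.

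The Stem libraries held 6709.7, 6685 and 6808 normalized counts of Gucy2c, and the AbsPro libraries 9023, 6819 and 7702. The SecPDG libraries held 5736, 9664, 7031 and 8318, and the Tuft libraries 8329, 6360.2, 7958, 8535 and 10412. These 4 cell types shared 1 range, except that all AbsPro libraries lay just above those of Stem. The Ent libraries held 3359, 3818, 2202, 6377 and 4357, all below Stem. EEC 1 held 1115 and EEC 2 held 6130.1.

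Against Stem, Gucy2c differed by 0.22 ± 0.44 on the log2 scale in AbsPro (adjusted p = 0.994), by 0.19 ± 0.41 in SecPDG (0.866) and by 0.30 ± 0.39 in Tuft (0.576). It was 0.74 ± 0.38 lower in Ent (adjusted p = 0.106) and 0.89 ± 0.50 lower in EEC (adjusted p = 0.145). Without the 4 libraries with over 80% of reads outside genes, the Ent difference shrank. It was then -0.22 from Stem (adjusted p = 0.506) and -0.36 from SecPDG (0.245). The smallest adjusted p over the 15 pairs of cell types was 0.0341, for Ent below SecPDG by 0.93 ± 0.36. With scaling by library totals the SecPDG difference was -0.06, so that its sign depends on the scaling. DESeq2's Wald test called Gucy2c lower in Ent than in Tuft (-0.75, adjusted p = 0.000830), where the reported fit gave -1.05 ± 0.34 (adjusted p = 0.0435). In EEC the value rests on which library is used. The difference from Stem was -2.60 without EEC 2 and -0.30 without EEC 1, the library with most reads outside genes. Each of these fits leaves 1 EEC library.

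Prkg2, the cGMP dependent kinase II gene, separated the cell types along another line than the peptides. It fell 5.04-fold in SecPDG and 2.73-fold in Tuft against Stem, and was not called in AbsPro, Ent or EEC. The order of its mean levels was AbsPro, Ent, Stem, EEC, Tuft and SecPDG. Thus SecPDG had the most Guca2a of the 6 cell types and the least Prkg2.

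The Stem libraries held 579.9, 485 and 769 normalized counts of Prkg2, the AbsPro libraries 765, 844 and 991, and the Ent libraries 657, 903, 633, 499.6 and 741. The SecPDG libraries held 132, 104, 111 and 136. The Tuft libraries held 254, 206, 343, 159 and 159. Every SecPDG and Tuft library lay below every library of Stem, AbsPro and Ent, and SecPDG lay below Tuft without overlap. The EEC libraries held 202 and 339.8, within the range of Tuft. The estimated background came to 25.8% of the count in EEC 1 and at most 9.68% in any other library.

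**Figure D3:**
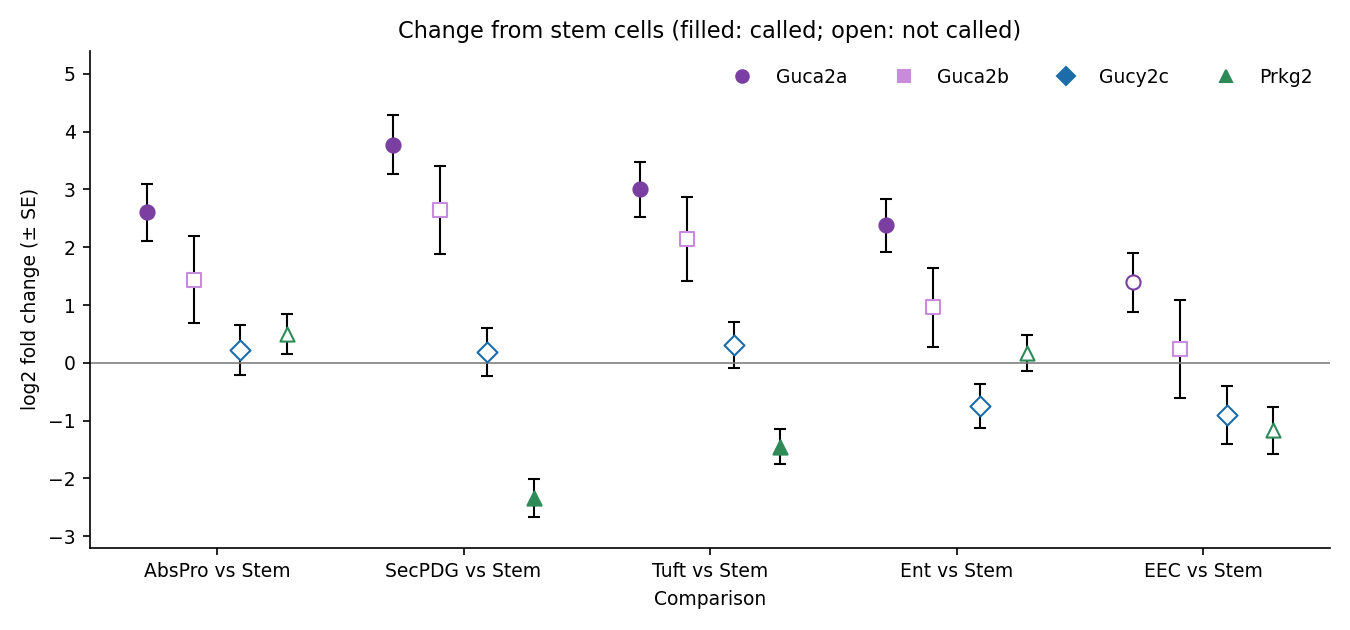
Log2 fold change of each gene against Stem (y axis) in the 5 comparisons (x axis), with SE as bars. Filled symbols were called and open symbols were not. Guca2a was called in 4 comparisons and Prkg2 in SecPDG and Tuft, while Gucy2c lay between -0.89 and 0.30.

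Prkg2 fell by 2.33 ± 0.33 on the log2 scale in SecPDG against Stem (adjusted p = 6.8e-06 in edgeR's test, 4 of 4 libraries below the mean of stem cells) and by 1.45 ± 0.30 in Tuft (adjusted p = 0.00114, 5 of 5 libraries). Without Stem 3 the Tuft call was just lost (-1.28, adjusted p = 0.0111). The difference in EEC was -1.17 ± 0.40 (adjusted p = 0.0207), in AbsPro 0.50 ± 0.35 (adjusted p = 0.590) and in Ent 0.17 ± 0.31 (adjusted p = 0.665).

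The 2 progenitor cell types differed in Prkg2 by 2.84 ± 0.33, with SecPDG below AbsPro (adjusted p = 8.98e-07). Tuft lay 1.95 ± 0.30 below AbsPro (adjusted p = 3.08e-05), where 3.96% of all genes were called. Ent lay 2.5 ± 0.31 above SecPDG (adjusted p = 3.3e-07) and 1.62 ± 0.28 above Tuft (adjusted p = 6.44e-05), where 6.31% were called. These calls were kept in the 13 alternatives run and whichever library of the 2 cell types was left out. Among the 13, no minimum mean, an adjusted p under 0.05 and a 2-fold minimum reuse the same tests and could not lose them. EEC lay 1.67 ± 0.41 below AbsPro (adjusted p = 0.00372, 10.9% called). Of 13 other settings 7 called this difference, and these include the settings that could not lose a call. DESeq2's Wald test did not call it (-0.97, adjusted p = 0.0398). Nor did RLE scaling, library totals, the fit of only the 2 cell types or thinned counts. The fit without the 4 libraries with over 80% of reads outside genes did not call it either. Tuft lay 0.89 ± 0.29 above SecPDG (adjusted p = 0.0616), where 0.900% of genes were called, and DESeq2 called it (1.10, adjusted p = 0.00453).

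Of 15 pairs of cell types, 7 called Prkg2, 6 called Guca2a, and 0 called Guca2b or Gucy2c, for which 4 and 3 pairs had an adjusted p under 0.05. In the 3 comparisons not yet given, 5.09% of genes were called between Ent and AbsPro, 5.30% between EEC and Tuft and 2.88% between EEC and Ent, and no member was. Among the 4 cell types whose files share 1 naming pattern, Guca2a was called in AbsPro and Ent against Stem and Prkg2 in EEC against AbsPro. The other 6 Prkg2 calls all set SecPDG or Tuft against one of these 4.

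The sum of 6 absorptive markers (Car1, Car4, Slc26a3, Aqp8, Krt20 and Alpi) stood beside Prkg2, at 874 to 2388 normalized counts in Tuft, 1638 to 2635 in SecPDG, 11222 to 22324 in Stem, 46779 to 67921 in Ent and 62184 to 95689 in AbsPro. EEC departed from that order, with 21062 in EEC 1 and 131530 in EEC 2, the highest sum of all libraries, beside 202 and 339.8 counts of Prkg2.

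Ratios within a library need no scaling between libraries, and levels were put per kilobase of exon to compare genes. In Stem, the guanylin gene and its receptor were near a par, at 0.728 to 1.17 counts per kilobase of Guca2a for each of Gucy2c, with a median of 0.871. In SecPDG the ratio was 9.43 to 13, and in Ent 5.79 to 11.4. It was 3.81 to 6.26 in AbsPro, 3.19 to 9.08 in Tuft and 4.12 and 6.63 in EEC. No library of another cell type reached down to those of Stem.

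Guca2a exceeded Guca2b in each of the 21 libraries that had counts of both, by 12.2 to 90.4 times per kilobase. The ratio of Prkg2 to Gucy2c was 0.00797 to 0.0170 in SecPDG and 0.0113 to 0.0317 in Tuft. It was 0.0535 to 0.0833 in Stem, 0.0625 to 0.0949 in AbsPro, 0.0578 to 0.212 in Ent and 0.0409 and 0.134 in EEC. SecPDG and Tuft thus lay below the other 4 cell types in this ratio in every library. These ratios were chosen after seeing the data and carry no test.

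**Figure D4:**
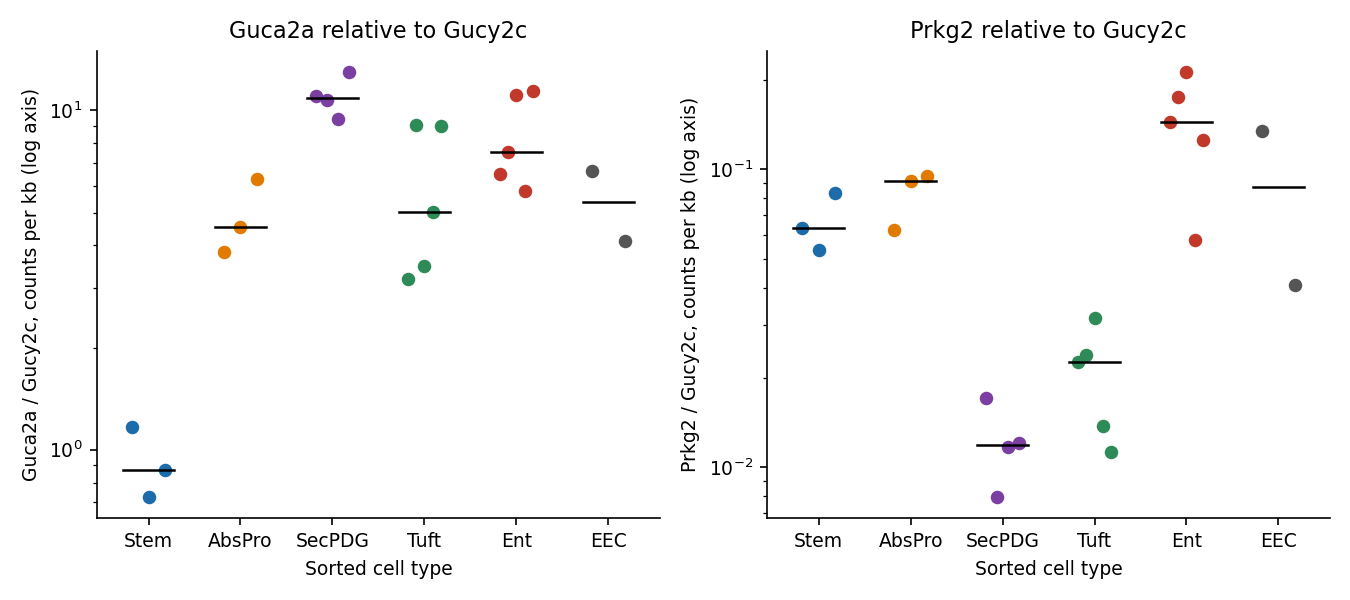
Ratio of counts per kilobase of Guca2a to Gucy2c (left) and of Prkg2 to Gucy2c (right) on log axes, with 1 point per library and a line at the median of each cell type. Stem had the lowest Guca2a ratios, at up to 1.17, and SecPDG and Tuft the lowest Prkg2 ratios, at up to 0.0317.

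On the same scale, the mean level per kilobase in SecPDG was 21506 for Guca2a, 1942 for Gucy2c, 401 for Guca2b and 22.5 for Prkg2. In Stem it was 1701 for Gucy2c, 1568 for Guca2a, 114 for Prkg2 and 64.1 for Guca2b. Prkg2 thus exceeded Guca2b per kilobase in Stem and was below it in SecPDG.

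The other genes of cGMP signalling were taken from a list of 42, of which 33 had a mean of at least 50 normalized counts. None was called in AbsPro. In SecPDG 3 were higher and 3 lower than in Stem, in Tuft 4 and 3, in Ent 7 and 4, and in EEC 11 and 3, where 3.10%, 6.44%, 13.5% and 14.0% of all genes were called. Genes below that mean are in these shares but could not be called, so the shares among genes like the 33 are higher. The counts of listed genes called depend on the method. DESeq2's Wald test called 3 higher in AbsPro, 3 higher and 4 lower in SecPDG, 10 and 5 in Tuft, 22 and 4 in Ent and 21 and 4 in EEC, and the newer quasi-likelihood method of edgeR called 2, 6, 16, 21 and 22 genes in these cell types. The median log2 fold change of the 33 genes was 0.04, -0.20, 0.80, 1.35 and 2.09 in these comparisons, beside 0.04, -0.05, -0.09, -0.30 and -0.33 over all genes with such a mean. That mean is taken over all 22 libraries, so some genes scarce in Stem entered the 33 through other cell types. Gucy1a2, for example, had means of 2.02 in Stem and 242 in EEC. The medians in Tuft, Ent and EEC are thus partly set by the filter and carry no test. Without the 4 libraries with over 80% of reads outside genes, 6 genes were called in Ent and 12 in EEC, of which 4 and 9 were among the calls above.

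Among the enzymes that break down cGMP, Pde2a, which cGMP itself activates, rose in SecPDG and Tuft. It went from 273 to 378 normalized counts in Stem to between 6970 and 14900.3 in SecPDG and between 7438 and 10519 in Tuft, with no overlap. The log2 fold changes were 4.86 ± 0.49 in SecPDG (adjusted p = 1.57e-08) and 4.69 ± 0.48 in Tuft (adjusted p = 1.41e-08). In EEC it rose by 2.15 ± 0.47 (adjusted p = 0.000994). Pde3a, which cGMP inhibits, fell by 2.08 ± 0.39 in SecPDG (adjusted p = 0.000429), by 2.35 ± 0.36 in Tuft (2.05e-05) and by 2.46 ± 0.51 in EEC (0.000592). With the estimated background taken off, the SecPDG call of Pde3a was lost (-2.01, adjusted p = 0.0317). Pde5a, the cGMP specific enzyme, fell by 1.25 ± 0.34 in Ent (adjusted p = 0.00534) and by 2.11 ± 0.47 in EEC (0.00111). Its mean went from 2989 ± 696 in Stem to 1253 ± 595 in Ent, and the Ent call was lost without the 4 libraries with over 80% of reads outside genes (-0.74, adjusted p = 0.0791).

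The largest called change of a phosphodiesterase was that of Pde10a, 5.66 ± 1.2 in EEC (adjusted p = 0.000713), from a mean of 7.28 in Stem to 378 in EEC, where the estimated background was 19.7% of the mean. That call too was lost without those libraries (4.98, adjusted p = 0.0205).

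Among the effectors at the membrane, Cftr was highest in stem cells and AbsPro. It fell from a mean of 9027 ± 1606 in Stem, with log2 fold changes of -1.70 ± 0.42 in SecPDG (adjusted p = 0.00933), -2.18 ± 0.40 in Tuft (0.000209), -1.58 ± 0.39 in Ent (0.00315) and -3.08 ± 0.58 in EEC (0.000184). The Ent call was lost without the libraries with over 80% of reads outside genes (-0.92, adjusted p = 0.0126). Slc9a3 took the other course, from 0 to 14.8 normalized counts in Stem to 498 to 752 in Ent, a rise of 6.48 ± 1.08 (adjusted p = 4.54e-05), and to 359.8 and 540.0 in EEC, a rise of 6.04 ± 1.11 (adjusted p = 0.000163). In AbsPro it stood at 102 to 229.8 (4.66 ± 1.03, adjusted p = 0.0161). Both Ent and EEC calls of Slc9a3 were kept without them.

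The scaffold genes of these transporters, Slc9a3r1 and Slc9a3r2, differed from each other. Slc9a3r2, which is known to bind Prkg2 protein, rose in SecPDG (4.15 ± 0.67, adjusted p = 5.26e-05) and Tuft (3.95 ± 0.65, 5.58e-05), the cell types with least Prkg2 RNA. It went from 28.3 to 74.3 normalized counts in Stem to 713 to 1264 in SecPDG and 661 to 1249 in Tuft. Slc9a3r1 was not called anywhere, with differences from -0.20 to 0.56. The exchanger Slc26a3, which is also on the list of absorptive markers, fell by 3.61 ± 0.53 in SecPDG (adjusted p = 1.27e-05) and by 2.48 ± 0.47 in Tuft (0.000365). It rose by 2.76 ± 0.53 in Ent (adjusted p = 0.000265) and by 2.09 ± 0.58 in EEC (0.00634). The EEC libraries held 359.8 and 4438.6 normalized counts of Slc26a3, and the lower value lay within the Stem range of 311 to 706. The EEC rise therefore rests on 1 library.

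**Figure D5:**
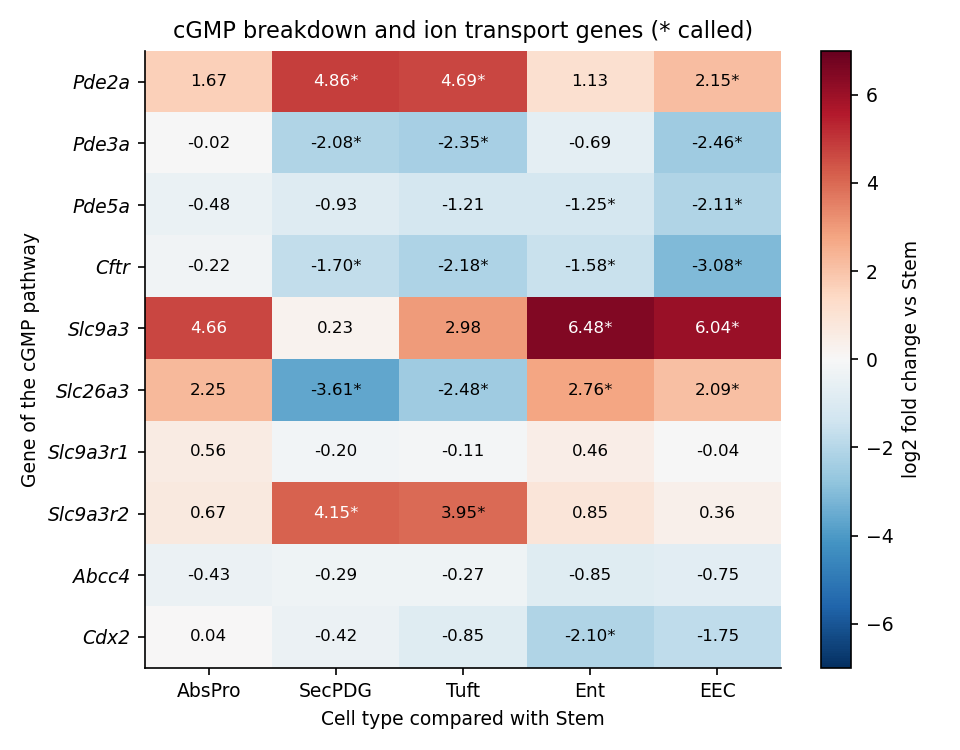
Log2 fold change against Stem (colour and printed value) of 10 genes of cGMP breakdown, ion transport, export and regulation (rows) in the 5 comparisons (columns). A star marks a called gene. Pde2a and Slc9a3r2 were called higher in SecPDG and Tuft, Slc9a3 in Ent and EEC, and Cftr was called lower in all but AbsPro.

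The remaining cyclases and kinase were low. Prkg1, the other cGMP dependent kinase, had means of 6.51 in Stem, 10.9 in AbsPro and 9.01 in SecPDG and was not called (4.18 ± 1.55 in Ent, adjusted p = 0.0267). Estimated background was 41.8% of its mean in Ent. Npr1, the receptor cyclase for atrial natriuretic peptide, was called in EEC (4.56 ± 1.34, adjusted p = 0.00871), where 1 library held 654 and the other 34 normalized counts. Without EEC 1, Ent 1, Ent 2 and Ent 3 the difference was 1.27 (adjusted p = 0.696). The largest called changes of their classes were Gucy2e at 5.39 ± 1.62 in EEC (adjusted p = 0.00982), Gucy1a2 at 6.81 ± 1.56 in EEC (0.00153) and Cnga3 at 4.96 ± 1.47 in Ent (0.00927), and each call was lost without those libraries, at 3.77 (adjusted p = 0.179), 5.78 (0.0301) and 4.33 (0.0625), so that the differences stayed large while the p-values rose. The sum of 3 endothelial markers ran from 9.60 to 16.2 in Stem, 273 to 613 in Ent and 780.2 to 1143 in EEC, and that of 4 stromal markers from 23.6 to 157, 302 to 843 and 280.3 to 1452. The sort had left out Cd31+ cells, and Pecam1, which encodes Cd31, had a mean of 676 in EEC. With the estimated background taken off in edgeR's fit, the EEC calls of Npr1 (4.82, adjusted p = 0.0122) and Gucy2e (5.47, 0.0208) were lost. That of Cnga3 in Ent was lost too (5.13, 0.0154), while Gucy1a2 in EEC stayed called (7.18, 0.00244). The part of endothelial or stromal cells, or of any background left, was not tested.

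The cGMP exporter Abcc4 was not called, from -0.85 in Ent (adjusted p = 0.0226) to -0.27 in Tuft, and Abcc5 rose by 1.75 ± 0.43 in EEC (adjusted p = 0.00276). Among factors known to bind the promoters of these genes, Cdx2, an intestinal homeobox factor, fell by 2.10 ± 0.40 in Ent (adjusted p = 0.000246), from 4982 ± 538 normalized counts in Stem to 1159 ± 483. Hnf4a, a nuclear receptor of gut and liver epithelium, was not called in any comparison with Stem.

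Genes were ranked by how closely their log2 normalized counts followed each member over the 22 libraries, among 13187 other genes with a mean of at least 50. The libraries share cell types and depth, so r is a description. Those nearest Guca2a were Tmc5 (r = 0.923), Bcas1 (0.922), the sodium channel subunit gene Scnn1a (0.912), the tryptase gene Tpsg1 (0.911) and Fcgbp (0.908), a mucus protein gene that is also on the goblet list. Those nearest Prkg2 were Hsd3b2 (0.934), Slc51b (0.928), a bile acid exporter subunit, Apol10a (0.917), the brush border protease Mep1a (0.904) and Tns4 (0.890). By Spearman's rho, all 5 nearest Prkg2 were among its 100 nearest, and 3 of 5 were for each other member.

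Among the 5 nearest Gucy2c were Furin (0.963), Slc44a3 (0.961), Snx17 (0.959) and Rab1b (0.958), genes active in most cells. Among the 5 nearest Guca2b were Ufc1 (0.929), Rapgef3 (0.918), the fatty acid receptor gene Ffar4 (0.912) and Bhlha15 (0.907), and the 0 in EEC 2 weighs on these values. By Spearman's rho, 1, 0, 0 and 3 of the 5 nearest genes of Guca2a, Guca2b, Gucy2c and Prkg2 were the same, and by the means of the 6 cell types 1, 0, 0 and 0 were. Between members, r was 0.47 and rho 0.79 for Guca2a with Guca2b, and r was -0.48 for Guca2a with Prkg2.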

How the data were processed

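The authors aligned 22 libraries to mm10 with STAR 2.5.2a, counted reads per gene with HTSeq 0.6.1p1 without regard to strand, and deposited the raw counts, which were used here as deposited. The other deposited tables (splicing and polyadenylation) were not used. Groups come from the labels. From the counts, edgeR 4.0.16 in R 4.3.3 gave the fit, with filterByExpr, TMM and glmQLFit at its defaults. The 5 entries per file that name no gene stayed out. Exon lengths come from GENCODE M21. The members and lists were chosen with earlier results of these data known. Named genes are the members, 9 set genes of the pathway list, the largest called change of each of its classes and the 5 genes most like each member by Pearson's r (log2 of the normalized count + 1). Pde2a, Pde3a, Slc26a3 and Hnf4a were added after their values were seen. A few genes that the rule names are not reported here. Libraries are independent sorts, of single mice in Stem and AbsPro and of pooled mice elsewhere, and P-values measure the spread between them. Reads carried no molecular identifiers, so limits cover counting error. The fit was tested on simulated data. DESeq2 1.42.0 and the alternatives are given at the end. Figures used Python 3.11.15 and matplotlib 3.10.9.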

Additional observations from a re-analysis of the deposited data

Results flagged for a closer look

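Guca2b in Tuft 5, at 450.9 normalized counts, stood apart from the other 4 Tuft libraries, which held 164 to 244. Its gap to the nearest library was 0.721 of the range of the group, above the critical value of 0.71 in Dixon's test for 5 libraries. Of 12 groups tested in this way (4 genes in SecPDG, Tuft and Ent) 1 was marked, and chance marks about 1 in 20. Tuft 5 also held the most Guca2a of its group, the highest sum of secretory progenitor markers and the most counts on genes, 20892532 against 9930648 to 11906187 in the other 4.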

How the results depend on the processing

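Limits. With 2 EEC libraries that disagree on Guca2b and Gucy2c, levels in EEC rest on single libraries. TMM and DESeq2's size factors place the median gene of Ent at -0.30 and 0.36 against Stem and that of EEC at -0.33 and 0.53. Relative to that median, Guca2a in EEC was 1.72 and 1.40 higher and Gucy2c in Ent 0.44 and 0.61 lower.

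For the 4 members over 15 pairs of cell types, 1139 of 1220 alternative values kept their side of the threshold, 61 gained a call, 18 lost one and 2 reversed. The 1220 include no minimum mean and a 2-fold minimum, which could change no call of a member. They also include an adjusted p under 0.05, which could lose none. The 2 reversed were Guca2b in EEC against Stem without EEC 1 (-8.88) and without the 4 libraries with over 80% of reads outside genes (-8.87). Both leave only EEC 2, at 0 counts, so that they depend on the prior count and are no bounds, and without EEC 2 the value was 1.26. The number of members called in EEC against Stem, 0 in the fit reported, was 1 with DESeq2's Wald test, RLE scaling or library totals, 2 at an adjusted p under 0.05 (Guca2a and Prkg2) and 2 without those 4 libraries (Guca2a and the Guca2b value just given). With each library left out in turn it was 0 to 2 in EEC, 0 to 1 in AbsPro and 1 to 2 in Tuft.

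Counts of called genes depend on the method more than members do. With the newer quasi-likelihood method of edgeR they were 134, 1132, 2750, 5058 and 4540 in AbsPro, SecPDG, Tuft, Ent and EEC against Stem, in place of 83, 707, 1468, 3082 and 3197, and DESeq2's Wald test gave 420, 1856, 3835, 5240 and 5680. In the same order, RLE scaling gave 116, 1205, 2266, 3696 and 4377, library totals 113, 1206, 2281, 3577 and 4319, fits of only the 2 cell types 310, 1805, 2569, 4908 and 261, an adjusted p under 0.05 172, 1251, 3329, 5394 and 5382, and leaving out the 4 libraries 298, 1489, 2533, 1620 and 2545. No minimum mean gave 4940 in Ent and 4893 in EEC, and thinned counts 2021 and 2179. The share of called genes that were higher was 41.4% in Ent and 46.9% in EEC, 69.9% and 72.4% with RLE scaling and 62.9% and 57.8% with library totals. In SecPDG it was 77.8%, and 54.3% with library totals. The newer method was added after the data were seen, as was leaving out the 4 libraries. Robust estimation, other dispersion trends, and a common or gene-wise dispersion were also tried on all genes after the first fit, and none was adopted.

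The replicate numbers of the labels do not pair the libraries: same-numbered libraries correlated at -0.393 to 0.488 (median 0.00138), and 5 of 22 were closest to their own number. With the replicate block, 1 member was called in AbsPro, 2 in SecPDG, 2 in Tuft, 1 in Ent and 0 in EEC against Stem, as without it.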
